A study of Sus scrofa with 6 samples.

Results

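The 9 genes described here, CS, IDH2, IDH3A, OGDH, DLST, SUCLG1, SUCLA2, FH and MDH2, encode enzymes of the citric acid cycle, and they are 9 of the 22844 gene rows measured in the subcutaneous fat of Duroc × Landrace × Yorkshire hybrid pigs. They were taken by gene symbol, each from a single row with a pig Ensembl identifier. Pigs on a control diet (3 libraries) were compared with pigs on a resveratrol-supplemented diet at 400 mg/kg (3 libraries), resveratrol being a plant polyphenol. Total RNA was sequenced after a long non-coding RNA library preparation, and whether the 3 libraries of a diet are 3 different pigs is not stated in the labels. The p-values below therefore reflect library-to-library spread, which may be technical.

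The citric acid cycle runs in the mitochondrial matrix. Acetyl groups from pyruvate and fatty acids are joined to oxaloacetate as citrate, and a series of oxidations then yields NADH and reduced flavin for the respiratory chain while oxaloacetate is restored. In adipocytes part of the citrate leaves the mitochondrion and supplies acetyl-CoA for fatty acid synthesis, so the cycle serves both energy yield and lipid storage.

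None of the 9 genes passed the test for a difference between the diets, and in 8 of them the libraries of the diets overlapped, DLST being the exception. In edgeR's quasi-likelihood test on read counts, 0 of 9 passed a Benjamini-Hochberg adjusted p under 0.05 (adjusted p from 0.733 to 0.959), where 0% of all 14908 tested genes passed. At an unadjusted p under 0.05 there were again 0 of 9, against 6.53% of all tested genes (2.21% higher and 4.32% lower in resveratrol), a total of 973 genes. SUCLA2 came nearest, and under some alternatives its unadjusted p lay under 0.05 (given with the gene). DESeq2 with adjustment over all tested genes called 0 of 9, against 0.268% of all tested genes (40 genes), and limma called 0 genes. A p that misses the threshold does not show that the diets were alike, so intervals are given as well. The estimates for CS, IDH3A, SUCLG1, SUCLA2, FH and MDH2 lay above 0 and those for IDH2, OGDH and DLST below it, with a median log2 fold change (resveratrol against control) of 0.06, beside -0.01 over all tested genes. The 95% interval of the fold change stayed within 2-fold in either direction for all 9 genes, as it did for 74.2% of all tested genes. For 6 of the 9 it stayed within 1.5-fold, against 32% of all tested genes. All 9 genes averaged above 5 TPM. Of the 9526 tested genes with a mean of at least 5 TPM, 8349 stayed within 2-fold and 4148 within 1.5-fold. Among these 9526 genes 5253 estimates were above 0, and the median log2 fold change was 0.03.

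**Figure D1:**
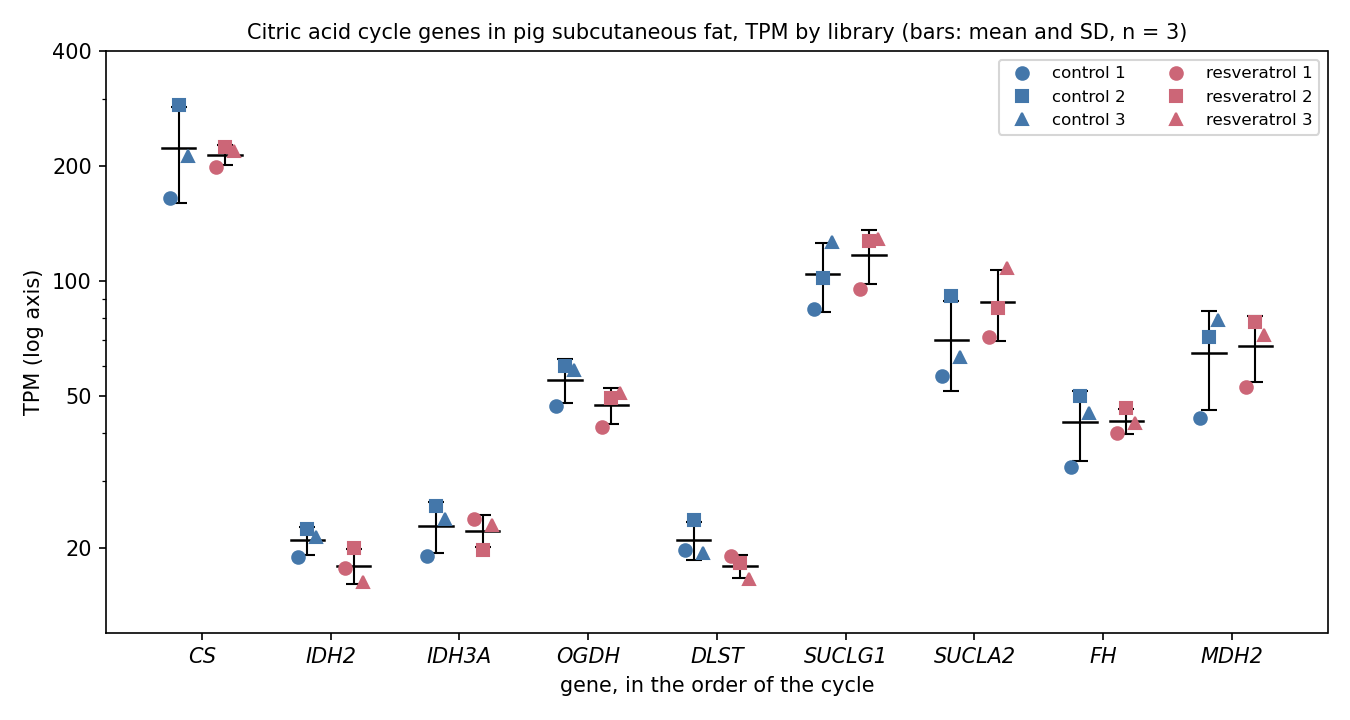
TPM (length-scaled transcript abundance, log axis) of the 9 genes in each library, control in blue and resveratrol in red, with the group mean and SD (n = 3) in black. CS stands highest, between 165.7 and 289.5 TPM, and the 2 diets overlap in every gene except DLST. Control 1 is the lowest control library in 8 of the genes in TPM, and in 6 in scaled counts.

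Library totals ran from 16251536 reads (control 2) to 37943877 reads (resveratrol 2), and the 9 genes held between 625 and 14916 reads per library. At 625 reads the counting error is 4.0% of the value, below the coefficient of variation of TPM between libraries of each gene in each group. The adipocyte markers were abundant, with a summed level of 18469 to 28199.8 TPM over all 10 listed genes. Of 14 skeletal muscle markers 7 were matched to rows, and their summed level was 1.70 to 3.08 TPM, with 6 of the 7 under 1 TPM in every library. Tendon and cartilage markers (6 of 6 matched) summed to 306 TPM in control 1 and to 14.3 to 58.7 TPM in the other libraries. Macrophage markers (10 of 10 matched) summed to 469 to 548 TPM in control and 609 to 868 TPM in resveratrol, and the endothelial markers (4 of 6 matched) to 193 to 259 and 189 to 207 TPM. In bulk tissue, fewer cells of a type and less RNA per cell cannot be told apart.

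Levels are given as TPM, which is scaled for transcript length and library size and can be compared between genes. The 2 dominant loci, the largest by reads and by TPM, held 30.3% of all TPM in control 1 and 20.6% to 24.4% in the other libraries. TPM has a fixed total per library, so the TPM of all other genes is scaled down most in control 1. By the median over the 6 libraries, CS stood first with 216 TPM, followed by SUCLG1 with 114 TPM, and each exceeded the next gene in 6 of 6 libraries. SUCLA2 (78.1 TPM) and MDH2 came next, and SUCLA2 was above MDH2 in 5 of 6 libraries, so the order of this pair did not hold in every library. MDH2 was likewise above OGDH (50.2 TPM) in 5 of 6 libraries. OGDH exceeded FH (43.9 TPM) and FH exceeded IDH3A (23.4 TPM) in 6 of 6. IDH3A, IDH2 (19.5 TPM) and DLST (19.2 TPM) formed the lowest group, in which IDH2 was above DLST in only 2 of 6 libraries and below IDH3A in 5 of 6. Together the 9 genes summed to 488, 736 and 651 TPM in control 1, 2 and 3 and to 562, 669 and 678 TPM in resveratrol 1, 2 and 3, which is 625 ± 126 against 636 ± 64.7 TPM (mean ± SD of 3 libraries each), and CS alone contributed 32.4% to 39.3% of that sum.

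The cycle opens with CS (ENSSSCG00000035686.1), citrate synthase, which joins acetyl-CoA to oxaloacetate and is widely used as a marker of mitochondrial content. It measured 165.7, 289.5 and 213.5 TPM in control 1, 2 and 3, against 199.8, 224 and 219 TPM in resveratrol 1, 2 and 3. The control libraries enclosed all 3 resveratrol libraries, with control 1 lowest and control 2 highest of the 6. The group means were 223 ± 62.4 and 214 ± 12.9 TPM, and on counts the log2 fold change was 0.06 (SE 0.19, edgeR adjusted p = 0.959). Its direction was not fixed: without control 1 the estimate was -0.0769, and without resveratrol 3 it was -0.00037. On log2(TPM + 0.5) in limma it was -0.0199, where the median over all tested genes was -0.08, against -0.01 in edgeR.

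The oxidation of isocitrate is served by separate enzymes. IDH3A (ENSSSCG00000032498.1) encodes the catalytic alpha subunit of the NAD-dependent enzyme, and IDH2 (ENSSSCG00000001852.3) the NADP-dependent mitochondrial enzyme, which supplies NADPH. IDH3A measured 19.0, 25.8 and 23.9 TPM in control 1, 2 and 3, against 23.8, 19.8 and 23.0 TPM in resveratrol 1, 2 and 3. IDH2 measured 19.0, 22.4 and 21.4 TPM against 17.7, 19.98 and 16.3 TPM in the same order. IDH3A overlapped fully between the diets, while IDH2 had its lowest pair of values in resveratrol 1 and 3 but overlapped through resveratrol 2. The log2 fold change of IDH3A was 0.05 (SE 0.17, edgeR adjusted p = 0.954), and its sign turned in limma on log2(TPM + 0.5) (-0.0355), without control 1 (-0.0244) and without resveratrol 3 (-0.0151). That of IDH2 was -0.11 (SE 0.15, edgeR adjusted p = 0.869), with a 95% interval from -0.45 to 0.22, and it ran from -0.17 without resveratrol 2 to -0.05 without control 3.

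The partner subunits of IDH3A stood at higher levels and varied differently between libraries. IDH3B, the beta subunit, measured 53.3, 60.5 and 85.5 TPM in control 1, 2 and 3, against 65.1, 86.3 and 83.4 TPM in resveratrol 1, 2 and 3. IDH3G, the gamma subunit, measured 38.1, 40.9 and 62.9 TPM against 48.6, 58.1 and 52.7 TPM. Control 2, which held the highest IDH3A level in TPM, held the second-lowest TPM of both partners. The ratio of IDH3A to IDH3B was 0.357, 0.427 and 0.279 in control 1, 2 and 3 and 0.366, 0.229 and 0.276 in resveratrol 1, 2 and 3, and the groups overlapped. The log2 fold changes of IDH3B and IDH3G were 0.31 (SE 0.23) and 0.24 (SE 0.23), with edgeR adjusted p = 0.758 and 0.811.

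The oxoglutarate dehydrogenase complex releases carbon dioxide and forms succinyl-CoA. OGDH (ENSSSCG00000016743.3) encodes its decarboxylating subunit, DLST (ENSSSCG00000002374.3) the lipoate-bearing core that transfers the succinyl group, and DLD the dehydrogenase that the complex shares with pyruvate dehydrogenase. OGDH measured 47.0, 60.1 and 58.6 TPM in control 1, 2 and 3, against 41.5, 49.4 and 51.0 TPM in resveratrol 1, 2 and 3. DLST measured 19.8, 23.7 and 19.4 TPM against 19.0, 18.2 and 16.6 TPM. DLST was the only one of the 9 genes whose groups did not overlap, in TPM as in scaled counts, with every resveratrol library below every control library. Over all tested genes the groups stood apart in 12.6% in scaled counts (6.97% with resveratrol lower and 5.67% with it higher) and in 12.3% in TPM (8.15% with resveratrol lower), so 1 of 9 is near the background.

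The gap in DLST was small. It was wider than the gene's own spread in scaled counts, the within-group SD being 0.032 in log2 CPM. That spread was no larger than the counting error, 3.63% at the gene's lowest count. In TPM the gap, from 19.36 in control 3 to 19.01 in resveratrol 1, was narrower than the SD of either group (2.40 and 1.245 TPM). In edgeR, whose SE draws on the spread of all genes, the log2 fold change of DLST was -0.13 (SE 0.14, edgeR adjusted p = 0.826), a fold of 0.912 with a 95% interval from 0.735 to 1.13. It was also the steadiest of the 9 genes, with a range of 0.18 in log2 CPM (reads relative to the library total after TMM, edgeR's trimmed-mean scaling between libraries) over the 6 libraries, where the median range over all tested genes was 0.75. The fold change stayed between -0.15 and -0.11 with each library left out in turn. The scaling moved it further, to -0.07 with library totals alone and -0.22 in limma on log2(TPM + 0.5). For OGDH the log2 fold change was -0.12 (SE 0.19, edgeR adjusted p = 0.889). It was -0.01 without resveratrol 1 and -0.22 without resveratrol 3. DLD measured 28.9, 48.8 and 37.8 TPM in the control libraries and 33.7, 32.1 and 40.0 TPM in the resveratrol libraries, with a log2 fold change of -0.01 (SE 0.19, edgeR adjusted p = 0.994). The ratio of OGDH to DLST was 2.65 ± 0.340 in control libraries and 2.66 ± 0.450 in resveratrol libraries (mean ± SD of 3 libraries each; p = 1.0 in a two-sided exact permutation test).

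Succinyl-CoA synthetase makes a nucleoside triphosphate directly. SUCLG1 (ENSSSCG00000008247.3) encodes the alpha subunit common to both forms of the enzyme, SUCLA2 (ENSSSCG00000009405.3) the beta subunit of the ATP-forming form and SUCLG2 that of the GTP-forming form. SUCLA2 measured 56.3, 91.4 and 63.1 TPM in control 1, 2 and 3, against 71.3, 85.0 and 108 TPM in resveratrol 1, 2 and 3. SUCLG1 measured 84.6, 102 and 127 TPM against 95.6, 128 and 129 TPM. In both genes the groups overlapped: control 2 lay above 2 resveratrol libraries in SUCLA2, and control 3 above resveratrol 1 in SUCLG1.

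SUCLA2 had the largest log2 fold change of the 9 genes, 0.45 (SE 0.21), equal to a fold of 1.37 with a 95% interval from 0.988 to 1.89. It did not pass (unadjusted p = 0.0574, edgeR adjusted p = 0.733), and in DESeq2 its unadjusted p was 0.0451 and its adjusted p 0.673. The estimate rested in part on resveratrol 3, without which it was 0.24. Without resveratrol 1 it was 0.60 (unadjusted p = 0.0253) and without control 2 it was 0.55 (unadjusted p = 0.0335), and neither passed after adjustment in edgeR. SUCLG1 had a log2 fold change of 0.26 (SE 0.22, edgeR adjusted p = 0.783), which ran from 0.14 without resveratrol 3 to 0.49 without control 3. SUCLG2 measured 42.9, 62.5 and 47.2 TPM in the control libraries and 51.0, 55.9 and 58.9 TPM in the resveratrol libraries, with a log2 fold change of 0.23 (SE 0.16, edgeR adjusted p = 0.751).

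In TPM, the transcript of the beta subunit of the ATP-forming enzyme exceeded that of the GTP-forming enzyme in every library. The ratio of SUCLA2 to SUCLG2 was 1.31, 1.46 and 1.34 in control 1, 2 and 3 and 1.40, 1.52 and 1.84 in resveratrol 1, 2 and 3. The ratio was highest in resveratrol 3, and the groups overlapped through control 2 and resveratrol 1 (p = 0.2 in a two-sided exact permutation test, 0.64 adjusted over the 8 ratios given). With 3 libraries against 3 the smallest p that this test can give is 0.1. SUCLG1 stood at 0.888 ± 0.245 of the summed TPM of the beta subunits in control and 0.820 ± 0.0760 in resveratrol (mean ± SD of 3 libraries each).

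**Figure D2:**
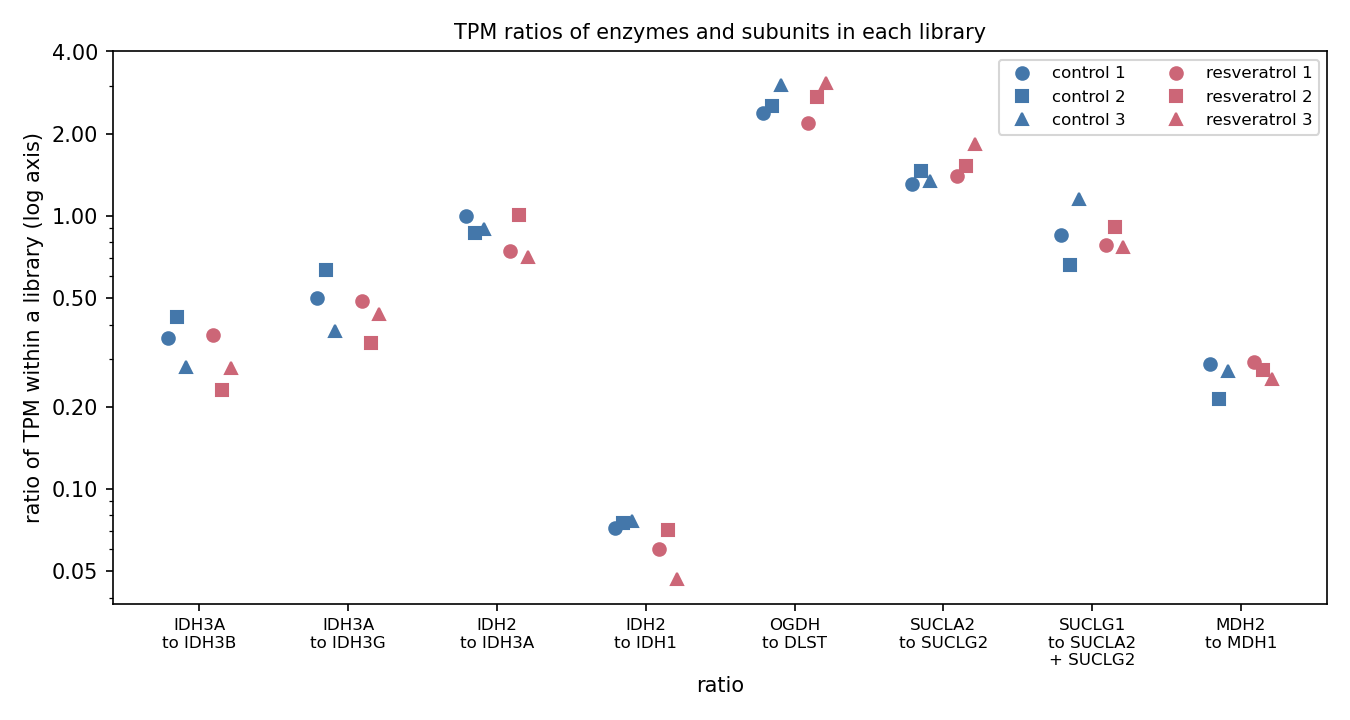
Ratios of TPM between enzymes or subunits within each library (log axis), control in blue and resveratrol in red. SUCLA2 exceeds SUCLG2 in all 6 libraries, IDH3A stays below IDH3B and IDH3G, and the ratio of IDH2 to IDH1 is the only one whose groups do not overlap.

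Succinate dehydrogenase, which is at once a cycle enzyme and complex II of the respiratory chain, links this step to fumarate. Its catalytic subunit SDHA measured 116, 127 and 185 TPM in control 1, 2 and 3, against 126, 163 and 176 TPM in resveratrol 1, 2 and 3. The iron-sulfur subunit SDHB and the membrane anchors SDHC and SDHD followed the same order of libraries in resveratrol, with resveratrol 1 lowest and resveratrol 3 highest in all 4 genes. In control, control 3 was highest in all 4. Their log2 fold changes were 0.20 for SDHA, 0.08 for SDHB, 0.16 for SDHC and 0.30 for SDHD, with SE from 0.22 to 0.28 and no edgeR adjusted p below 0.766.

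FH (ENSSSCG00000028178.2), fumarase, hydrates fumarate to malate. It measured 32.7, 50 and 45.3 TPM in control 1, 2 and 3, against 40.1, 46.4 and 42.6 TPM in resveratrol 1, 2 and 3, so that the control libraries again enclosed the resveratrol libraries. The log2 fold change was 0.13 (SE 0.18, edgeR adjusted p = 0.872), and it was 0.0045 without control 1. MDH2 (ENSSSCG00000025486.2), the mitochondrial malate dehydrogenase, restores oxaloacetate. It measured 43.7, 71.2 and 79.2 TPM against 52.9, 78.1 and 72.5 TPM, with control 1 and resveratrol 1 lowest in their groups. Its log2 fold change was 0.16 (SE 0.24, edgeR adjusted p = 0.886), which turned to -0.0247 without control 1 and was 0.40 without control 3.

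**Figure D3:**
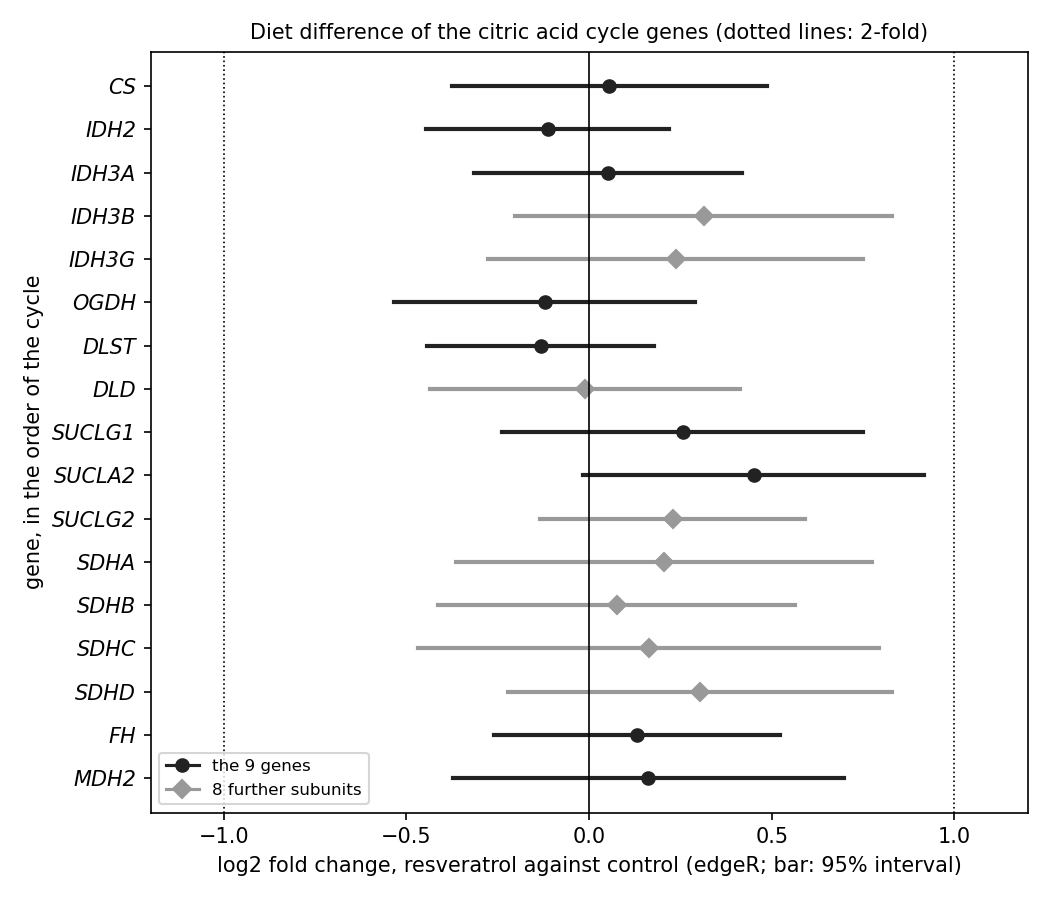
Log2 fold change of resveratrol against control for the 9 genes (black circles) and 8 further subunits of the cycle (grey diamonds), with 95% intervals from edgeR that are not adjusted for the number of genes. Every interval holds 0 and none reaches a 2-fold difference, the widest upper bound among the 9 being 0.92 for SUCLA2.

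A further 8 subunits (IDH3B, IDH3G, DLD, SUCLG2 and SDHA to SDHD) gave a similar result. None passed at an adjusted or unadjusted p under 0.05, 7 of 8 estimates were above 0, where 48.8% of all tested genes were, and the median log2 fold change was 0.22. Of the 9526 tested genes averaging at least 5 TPM, 5253 had estimates above 0, with a median of 0.03. Their spread within groups was wider than that of the 9 genes, with a median SD of 0.35 against 0.20 in log2 CPM. Over all tested genes this median was 0.27.

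In the mean of the 9 genes, libraries of the same diet lay farther apart than the diets did. TMM-scaled CPM, centred on each gene's mean, put the 9 genes together at -0.23, -0.03 and 0.13 on the log2 scale in control 1, 2 and 3 and at -0.12, 0.06 and 0.19 in resveratrol 1, 2 and 3. Control 1 was the lowest control library in 6 of the 9 genes (28% of all tested genes), and resveratrol 1 was the lowest resveratrol library in 7 of 9 (30.6%). Both held in 5 of 9, and in 8 of 17 with the further subunits, against 10.6% of all tested genes. Resveratrol 3 was the highest resveratrol library in 7 of 9 genes (35.9% of all tested genes). The summed adipocyte markers in TPM, 64.0% to 70.9% of them FABP4, were lowest in control 1 (18469 TPM) and resveratrol 1 (22605 TPM). Marker by marker in scaled counts, control 1 was the lowest control library in 4 of the 10 and control 2 in 6, while resveratrol 1 was the lowest resveratrol library in 8. Control 1 had the highest tendon and cartilage markers and resveratrol 1 the highest macrophage markers. The part of these markers in the levels of the cycle genes was not tested.

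**Figure D4:**
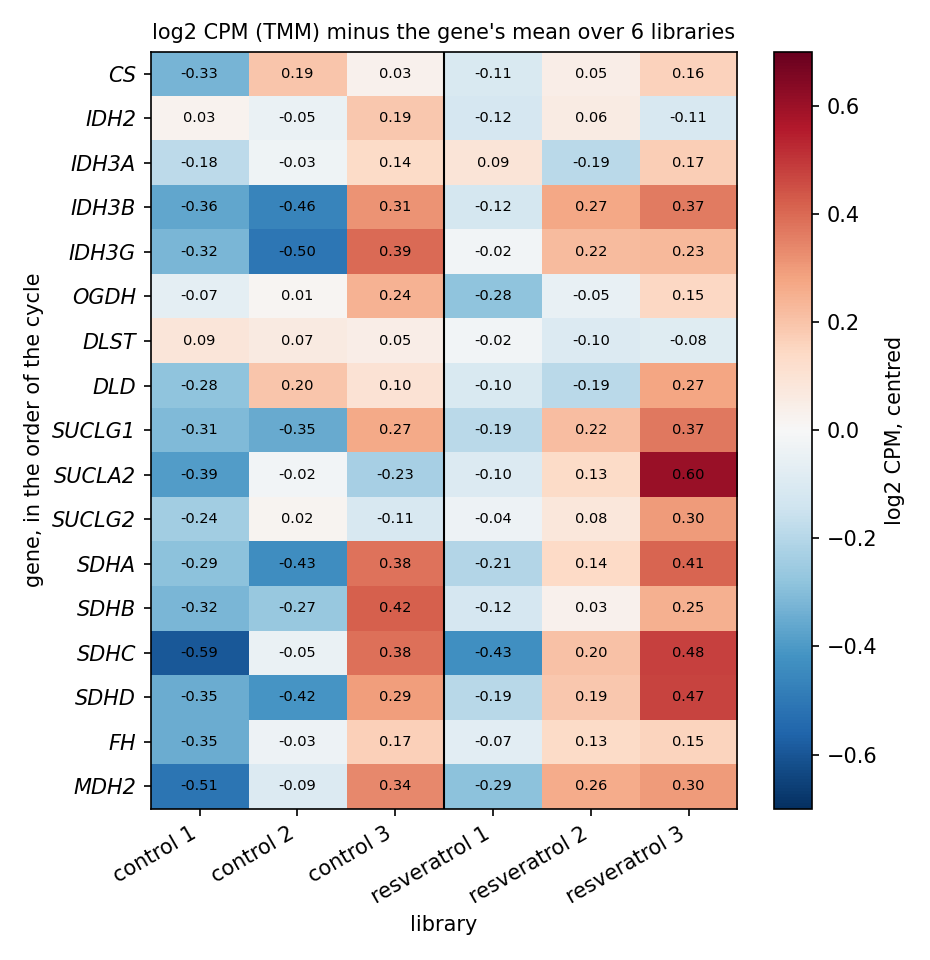
Log2 CPM of each cycle gene minus its mean over the 6 libraries, by library. Control 1 is below the mean in 15 of the 17 genes and resveratrol 3 above it in 15 of 17, while IDH2 and DLST vary least across the row.

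The 9 genes did not all follow this order. MDH2 spanned 0.85 and SUCLA2 0.99 in log2 CPM over the 6 libraries, whereas IDH2 spanned 0.30 and IDH3A 0.36. In DLST no library departed from the gene's mean by more than 0.10. FH lay nearest to the mean profile of the 9, with a root-mean-square difference of 0.064 in log2 CPM, and SUCLA2 lay farthest from it at 0.24. The ratio of reads to TPM, which reflects the transcript length the authors assigned, stayed within 97.4% and 101.9% of its mean in FH, the widest range of the 9, so TPM and counts describe the same differences between libraries apart from overall scaling.

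**Figure D5:**
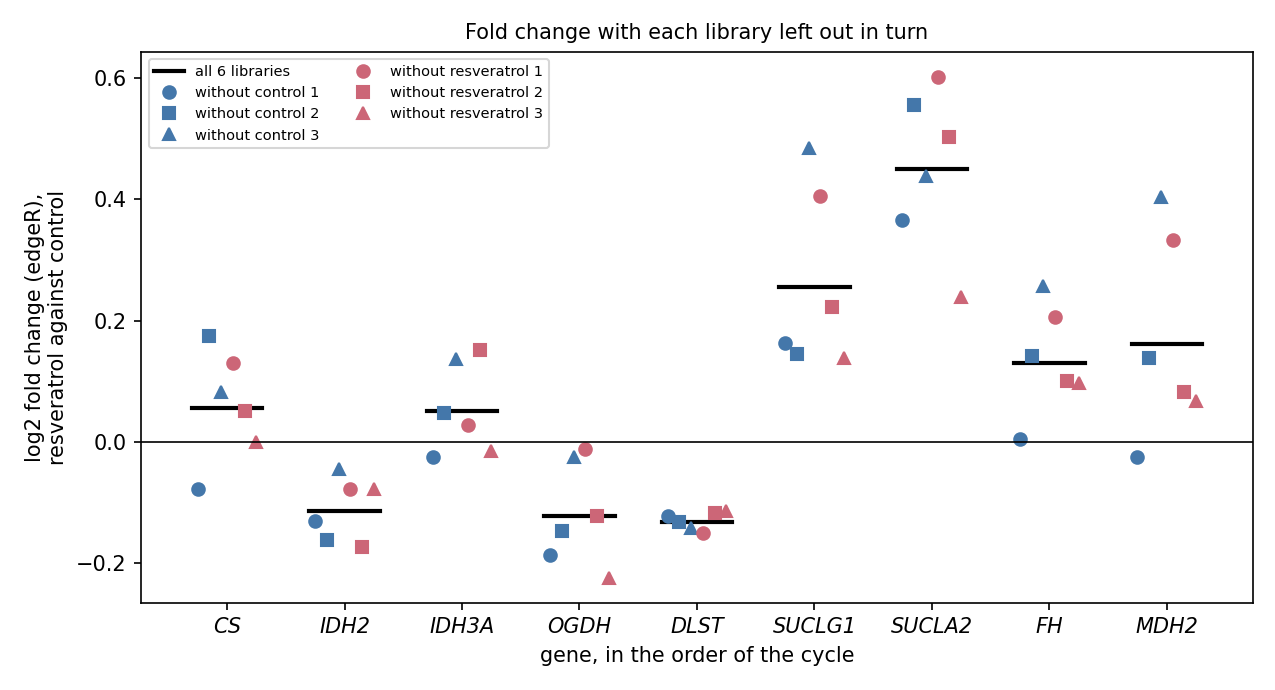
Log2 fold change (edgeR) of the 9 genes with all 6 libraries (black bars) and with each library left out in turn. DLST barely moves, between -0.15 and -0.11, and SUCLA2 lies between 0.24 and 0.60, while the estimates of CS, IDH3A and MDH2 cross 0.

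By the same distance, the genes with the pattern nearest to the mean profile, among 7680 genes with a symbol and a mean of at least 5 TPM, were ACSS3, SLC25A3, PDK1, ACAD10, ASS1 and GPN3, with root-mean-square differences from 0.032 to 0.048 in log2 CPM over the 6 libraries. SLC25A3, the mitochondrial phosphate carrier, measured 216, 291 and 277 TPM in the control libraries and 235, 258 and 279 TPM in the resveratrol libraries. PDK1, a kinase that inhibits pyruvate dehydrogenase, measured 28.3, 37.6 and 34.3 TPM in the control libraries and 29.7, 35.7 and 35.9 TPM in the resveratrol libraries. Both had control 1 and resveratrol 1 lowest in their groups. This follows from their choice by nearness to the mean profile and is no separate observation.

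In TPM, transcripts of the cytosolic IDH1 and MDH1 stood above those of the mitochondrial IDH2 and MDH2 in every library. The listed GOT1 and GOT2 went the other way. Cytosolic GOT1 lay at 10.9 to 19.1 TPM and mitochondrial GOT2 at 40.9 to 85.1 TPM. IDH1, the cytosolic NADP-dependent enzyme, measured 263, 298 and 279 TPM in control 1, 2 and 3, against 294, 283 and 348 TPM in resveratrol 1, 2 and 3. The ratio of IDH2 to IDH1 was 0.0722, 0.0752 and 0.0765 in control and 0.0602, 0.0706 and 0.0468 in resveratrol. Every resveratrol library lay below every control library in this ratio, which gave the smallest p the exact permutation test allows (p = 0.1, two-sided, 0.64 adjusted over the 8 ratios), and neither gene passed by itself (edgeR adjusted p = 0.869 and 0.778). MDH2 stood at 0.257 ± 0.0393 of cytosolic MDH1 in control libraries and 0.273 ± 0.0202 in resveratrol libraries (mean ± SD of 3 libraries each). Of the 7 cytosolic genes listed, 4 estimates were above 0 and 0 passed at an unadjusted p under 0.05. ACLY, which splits exported citrate into acetyl-CoA, measured 37.6, 270 and 208 TPM in the control libraries and 53.2, 109.8 and 105 TPM in the resveratrol libraries, with a log2 fold change of -0.80 (SE 0.64, edgeR adjusted p = 0.778).

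Genes that feed the cycle gave no adjusted call either. Of the 11 tested genes of pyruvate entry, 8 estimates were above 0, the median log2 fold change was 0.04 and 0 had an unadjusted p under 0.05. PDK4, a kinase that shuts off pyruvate dehydrogenase in fasting, measured 344, 660.4 and 494 TPM in the control libraries and 477, 465 and 738 TPM in the resveratrol libraries. Its relative PDK2 measured 19.6, 28.2 and 20.03 TPM against 19.1, 19.6 and 16.4 TPM, with a log2 fold change of -0.20 (SE 0.15, edgeR adjusted p = 0.758). Of the 15 genes of anaplerosis and glutamate metabolism, which refill or drain the cycle, 8 estimates were above 0 and the median was 0.06. An unadjusted p under 0.05 was found in 1 of the 15, PCK2, against 6.53% of all tested genes, so the count is near the background. PCK2, the mitochondrial enzyme that makes phosphoenolpyruvate from oxaloacetate, was at 4.62, 3.56 and 2.86 TPM in the control libraries. In the resveratrol libraries it was at 5.71, 4.64 and 4.93 TPM (log2 fold change 0.55, SE 0.22, edgeR adjusted p = 0.733). GPT2, the mitochondrial alanine aminotransferase, stayed under 1 TPM in every library, with a log2 fold change of 0.71 (SE 0.43).

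Enzymes of ketone body and hydroxyglutarate metabolism had estimates above 0 in 6 of 6, where 48.8% of all tested genes did. Among the 9526 tested genes averaging at least 5 TPM, 5253 did. The median of the 6 was 0.24, 0 had an unadjusted p under 0.05, and SUCLG2 is counted here too. OXCT1, which spends succinyl-CoA to activate ketone bodies, measured 186, 257 and 249 TPM in the control libraries, against 237, 291 and 258 TPM in the resveratrol libraries, with a log2 fold change of 0.28 (SE 0.19). ACAT1, the mitochondrial acetoacetyl-CoA thiolase, measured 63.5, 103 and 102.9 TPM against 79.5, 109 and 131 TPM, with a log2 fold change of 0.35 (SE 0.25). The only receptor matched, SUCNR1 for succinate, stood between 1.02 and 1.37 TPM (log2 fold change 0.37, SE 0.32).

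Of the carriers that move cycle intermediates across the inner membrane, 4 of 7 estimates were above 0, with a median of 0.01. SLC25A22, a glutamate carrier, measured 31.0, 33.2 and 31.8 TPM in the control libraries and 37.2, 53.4 and 34.5 TPM in the resveratrol libraries (log2 fold change 0.46, SE 0.18, unadjusted p = 0.0300, edgeR adjusted p = 0.733). It was 1 of 7 carriers with an unadjusted p under 0.05, where 6.53% of all tested genes had one. The aspartate and glutamate carrier SLC25A13 measured 6.97, 8.54 and 7.22 TPM against 5.62, 4.85 and 6.28 TPM (log2 fold change -0.32, SE 0.17). Genes of lipoate attachment, the cofactor DLST carries, and of cluster and complex assembly had 3 of 6 estimates above 0 and 0 at an unadjusted p under 0.05. For LIAS, lipoyl synthase, the log2 fold change was 0.21 (SE 0.20), beside 0.14 (SE 0.19) for NFS1, the cysteine desulfurase of iron-sulfur cluster assembly.

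Among 11 tested genes of the transcriptional control of mitochondrial genes, 6 estimates were above 0, the median was 0.0030, and 2 lay below 0 at an unadjusted p under 0.05, against 4.32% of all tested genes in that direction. MYC measured 8.33, 17.1 and 9.31 TPM in the control libraries and 7.48, 6.10 and 5.51 TPM in the resveratrol libraries (log2 fold change -0.74, SE 0.22, edgeR adjusted p = 0.733). PPRC1, a coactivator related to PGC1 alpha, measured 3.55, 4.47 and 2.64 TPM against 2.46, 2.25 and 1.51 TPM (log2 fold change -0.67, SE 0.20, edgeR adjusted p = 0.733). PPARGC1A itself lay below the filter on low values, with 5 to 25 reads per library. Markers of mitochondrial mass outside the cycle had 6 of 9 estimates above 0, a median of 0.12 and 0 at an unadjusted p under 0.05. For VDAC1, the channel of the outer membrane, the log2 fold change was -0.31 (SE 0.22), beside 0.22 (SE 0.19) for PHB2, a prohibitin of the inner membrane.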

How the data were processed

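The authors deposited, per the file headers, 2 measures for each of 22844 rows in each of 6 libraries, a read count (whole numbers) and TPM. A deposited series table holds the same TPM for 14777 rows, exactly those that reach 1 TPM in any library. The submitters' processing notes list mm8 and mm9, which are mouse builds, and Bowtie 0.12.2. For the pig build, annotation, counting program and strand handling, nothing is given in the sources used here, so no coordinates are printed, and reads of overlapping genes or close copies cannot be assigned with certainty. Symbols were matched for 14750 rows.

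Counts were tested with edgeR 4.0.16 (TMM, robust quasi-likelihood) in R 4.3.3 on the 14908 rows averaging 0.5 TPM or more, which all 9 genes passed, with Benjamini-Hochberg adjustment over all rows. The SE is the log2 fold change over the square root of F, and 95% intervals use the fit's degrees of freedom. Log2 CPM used a prior count of 2. Groups came from sample titles. The script was tested on simulated counts. Alternatives used DESeq2 1.42.0 and limma 3.58.1 on log2 TPM after adding 0.5, 1 or 0.1, other scalings (library totals, upper quartile) and filters, a replicate block, and each library left out. Named are the 9 genes, 8 further subunits, the 2 genes of smallest p of each other pathway list, and 6 genes of nearest pattern. The genes and lists were chosen with earlier results of these data known. Of the listed genes, 2 are not reported here and were left out of the list counts and ratios after the fit.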

Additional observations from a re-analysis of the deposited data

How the results depend on the processing

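The count of genes past the adjusted threshold was 0 in edgeR, 40 in DESeq2 and 0 to 5 with each library left out in turn (5 without control 2), and none of these calls was one of the 9 genes. At an unadjusted p under 0.05 edgeR gave 973 genes, 329 higher and 644 lower in resveratrol, but 605 higher and 339 lower with library totals alone, 1681 without control 3, 556 without resveratrol 1 and 403 without resveratrol 3. The median of all log2 fold changes was -0.01 with TMM, 0.06 with library totals alone and -0.08 in limma on log2(TPM + 0.5). Signs turned in 3 of the 9 genes. In limma with 0.5, 1 and 0.1 added to TPM, CS was at -0.0199, -0.0199 and -0.0199 and IDH3A at -0.0355, -0.0349 and -0.036. With each library left out, CS ran from -0.0769 to 0.17, IDH3A from -0.0244 to 0.15 and MDH2 from -0.0247 to 0.40, in each case lowest without control 1. The cause was not tested. The other 6 genes kept their sign under all 19 alternatives, and no alternative brought any of the 9 past the adjusted threshold (lowest adjusted p = 0.440, SUCLG1 without control 3). The median of the 9 ran from -0.02 to 0.14 and the ratio of summed TPM from 0.917 to 1.12. The replicate numbers were not taken as pairs because the labels do not state a pairing. Same-numbered libraries correlated at 0.16, 0.07 and 0.20 in their deviations across genes, and every library correlated best with its own number. With the replicate block, 0 genes passed, 1259 had an unadjusted p under 0.05, and SUCLA2, one of them, had a log2 fold change of 0.43 (unadjusted p = 0.0414, edgeR adjusted p = 0.578). Its unadjusted p was also under 0.05 in DESeq2 (0.0451), with no filter (0.0432), without control 2 (0.0335) and without resveratrol 1 (0.0253), as was that of SUCLG1 without control 3 (0.0453), so the count of 0 of 9 at that threshold became 1 of 9 in these 6 alternatives. Counting error at the lowest count of the 9 genes was 4.0%. For DLST, 3.63% at its lowest count, it was no smaller than the spread of scaled counts within groups (SD 0.032 in log2 CPM), so depth limits how finely that gene can be read. With 3 libraries a diet, the 95% intervals still allowed SUCLA2 a fold of up to 1.89 and SUCLG1 one of up to 1.68.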

Other observations

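Beside the cycle, 3 genes named after their values were seen spanned wide ranges between libraries, at 2.12 for SLC25A1, 2.15 for ME1 and 1.70 for PDHB in log2 CPM. The median range over all tested genes was 0.75. These 3 were not the widest of the listed genes, as ACLY spanned 2.59. Others that exceeded PDHB included ACSS2 (2.075), PCK1 (1.95), ALDH4A1 (1.815) and SLC25A10 (1.74). Other subunits of pyruvate dehydrogenase spanned 0.93 (PDHA1), 0.86 (DLAT) and 1.06 (PDHX), within the range of the cycle genes (up to 1.07 in SDHC). SLC25A1, the citrate carrier, was at 37.7, 146 and 165.5 TPM in libraries 1, 2 and 3 of the control diet, against 46.6, 124 and 108 TPM in those of the resveratrol diet. ME1, the cytosolic malic enzyme, was at 71.5, 364 and 213 TPM against 69.5, 137 and 169.9 TPM, and PDHB, a subunit of pyruvate dehydrogenase, 52.9, 167 and 162 TPM against 66.5, 124 and 163 TPM. In each of these genes control 1 and resveratrol 1 were the lowest of their groups, and the edgeR adjusted p for the diet was from 0.792 to 0.999.

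OGDH took 9.64%, 8.17% and 9.004% of the summed TPM of the 9 genes in control 1, 2 and 3 and 7.39%, 7.39% and 7.52% in resveratrol 1, 2 and 3, a share whose groups did not overlap. The share of SUCLA2 did not overlap either, at 11.6%, 12.4% and 9.70% against 12.7%, 12.7% and 15.9%, and the other 7 shares did. Both were singled out after the 9 shares were seen, and they were not tested. The shares are parts of 1 sum and so depend on each other. In their own TPM both genes overlapped between the diets. Over all tested genes the groups stood apart in TPM in 12.3%, and no such background was made for shares.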
